A study of Mus musculus with 24 samples.

Results

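The WT arm of socially isolated (SI) mice, SI_WT, was compared with isolated mice without treatment, SI_Con, in bulk RNA sequencing of the medial prefrontal cortex. The members are the 8 libraries titled SI_WT 1 to 4 and SI_Con 1 to 4, of 24 in the series. The other 16 libraries came from GH mice (GH_WT, GH_EE and GH_Con) and from isolated mice given an enriched environment (SI_EE), with 4 in each group. Every library carries the genotype label 5xFAD, the treated and untreated ones alike. The treatment label is WT in SI_WT and SI in SI_Con, so that the isolation of SI_WT is given by the sample titles only. The sources used here do not explain the terms WT, in animals labelled 5xFAD, or GH. The series title names resocialization, but no label ties that word to SI_WT. Age, the duration of isolation and whether each library came from its own mouse are not given either, so a p-value reflects only how these libraries vary, which may be technical.

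5xFAD mice carry human APP with familial Alzheimer's disease mutations, driven by the neuronal Thy1 promoter, and deposit amyloid in the cortex. APP is the precursor that beta- and gamma-secretase cut to amyloid beta. Microglia that gather at plaques switch on a set of genes under the receptor TREM2, while astrocytes raise the filament gene Gfap. The medial prefrontal cortex serves social memory and executive control, and social isolation in adult or juvenile mice is known to alter its myelin, its neuropeptide systems and the stress hormone axis.

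Total counts of the 8 libraries ran from 33683587 (SI_WT 4) to 51274917 (SI_WT 1). Slc17a7, the vesicular glutamate transporter of cortical pyramidal neurons, was read at 796 to 1336 CPM (read counts scaled to the library total) in SI_WT and at 694 to 1396 CPM in SI_Con, and the cerebellar granule cell gene Gabra6 did not exceed 1.05 CPM in any of the 8. Each group held 2 libraries with high Xist (SI_WT 1 and 4, SI_Con 1 and 2) and 2 with Y-linked reads. Libraries that stood apart sat in both groups. In SI_WT 4, SI_Con 2 and SI_Con 3 longer genes read lower, with rank correlations between gene length and the deviation of log2 CPM from the mean of −0.35 in SI_WT 4, −0.33 in SI_Con 2 and −0.28 in SI_Con 3, against 0.05 to 0.14 in the other 5. The same 3 libraries gave 1.58%, 1.28% and 1.42% of their reads to cytosolic ribosomal protein genes, against 0.867% to 0.99% in the other 5. SI_Con 3 also had the highest glucocorticoid-responsive genes of the 8, and SI_Con 4 the highest choroid plexus genes. Many of the results below are also given without 1 or more of these libraries.

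The human APP transgene was examined first. The table has an entry spelled APP, in human capitals and with no mouse identifier, and the sequence behind it is not stated. The human APP entry was read at 4685, 4265, 2881 and 2199 CPM in SI_WT 1 to 4, against 2160, 2727, 1041 and 1852 CPM in SI_Con 1 to 4. SI_WT 1, 2 and 3 were above every SI_Con library, and SI_WT 4 lay within the SI_Con range. SI_WT 4 and SI_Con 3 were the lowest of their groups. The difference was 0.85 ± 0.47 on the log2 scale (SE, edgeR quasi-likelihood test, Benjamini-Hochberg adjusted p = 1), so it did not pass the threshold of 0.05. When 1 library was left out, the difference ran from 0.64 to 1.06. Libraries labelled WT thus held reads under the human APP entry at levels within or above the SI_Con range.

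Mouse App, the endogenous precursor gene, was at 1602, 1352, 1437 and 936 CPM in SI_WT and at 1593, 1300, 1003 and 1497 CPM in SI_Con, a difference of −0.02 ± 0.18 (log2, SE). The groups overlapped over nearly their whole ranges. Mouse Thy1, whose promoter drives the transgene, was at 2203, 2257, 1522 and 3477 CPM in SI_WT, against 1300, 2177, 1645 and 1169 CPM in SI_Con. Its difference was 0.59 ± 0.29 (edgeR, adjusted p = 1) and 0.34 without SI_WT 4, and reads of a Thy1-driven transgene and of Thy1 itself could have been counted under either.

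**Figure D1:**
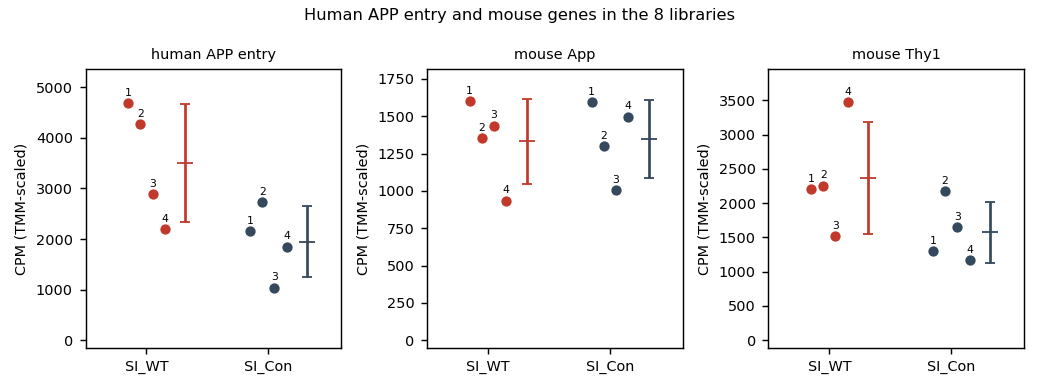
Level of the human APP entry and of mouse App and Thy1 in CPM (vertical axes) in SI_WT (left) and SI_Con (right), 1 point per library with its number, and the mean with SD. For the human APP entry SI_WT 1, 2 and 3 lie above all SI_Con libraries, while mouse App overlapped between the groups.

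Across the transcriptome, no gene differed between SI_WT and SI_Con past the threshold. Of 20354 genes tested by edgeR with Benjamini-Hochberg adjustment, 0 (0%) were called and 781 (3.84%) had an unadjusted p under 0.05, of which 284 (1.4%) were higher and 497 (2.44%) lower in SI_WT. DESeq2 called 2 of 20261 genes (0.00987%), Nipal4 and Mboat2, and limma-voom called 0 (0%). On simulated counts of these libraries the edgeR test recovered 57% of 100 genes changed 1 unit on the log2 scale and 92% of 100 genes changed 2 units. The changed genes all averaged above 1 CPM, and both sets were changed in the same run. Recovery of genes at lower levels, or with fewer genes changed, was not tried. In the same simulation DESeq2 called 26 unchanged genes and edgeR 3. Groups did not overlap in 162 genes (0.796%) with SI_WT higher and in 267 genes (1.31%) with SI_WT lower. Single libraries carried much of the count. SI_Con 3 was the highest of the 8 in 206 (41.4%) of the 497 lower genes, and SI_WT 4 the highest in 119 (41.9%) of the 284 higher genes.

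The smallest p on the lower side belonged to Mboat2 (chr12:24830879-24964397, plus strand, GRCm38), an acyltransferase that remodels membrane phospholipids. It was at 22.1, 23.8, 25.7 and 16 CPM in SI_WT, against 55.2, 50.9, 23.2 and 55.3 CPM in SI_Con. All SI_WT libraries and SI_Con 3 sat near one level, and SI_Con 1, 2 and 4 sat well above it. The difference was −1.08 ± 0.21 (log2, SE; edgeR, adjusted p = 0.595; DESeq2, adjusted p = 0.0201). Without SI_Con 3 it became −1.30 and passed the edgeR threshold (adjusted p = 0.00262), and it was the 1 gene called in that fit. In GH mice the gene averaged 23.8 ± 2.23 CPM in GH_WT and 25.1 ± 2.46 CPM in GH_Con (SD, n = 4 each), below the 3 higher SI_Con libraries.

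Nipal4 (chr11:46148155-46166508, minus strand), a membrane protein of the magnesium transporter-like NIPA family, had the smallest p on the higher side. It was at 5.89, 5.78, 4.92 and 6.19 CPM in SI_WT, against 2.62, 3.86, 3.35 and 3.45 CPM in SI_Con. Every SI_WT library was above every SI_Con library. The difference was 0.78 ± 0.16 (edgeR, adjusted p = 0.595; DESeq2, adjusted p = 0.0201). GH mice were near the SI_WT level in both arms, with 5.22 ± 0.681 CPM in GH_WT and 5.46 ± 0.57 CPM in GH_Con (SD, n = 4 each).

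Among the other 9 lower genes named by smallest p, each with an edgeR adjusted p of at least 0.947, receptors and regulators stood beside immune genes. Lepr, the leptin receptor, was at 1.26, 1.18, 1.17 and 0.637 CPM in SI_WT and at 2.76, 2.61, 2.29 and 2.99 CPM in SI_Con (difference −1.32 ± 0.30). Nelfb, a subunit of the negative elongation factor that holds RNA polymerase II near promoters, was at 29.4 to 32.5 CPM in SI_WT and 38.9 to 46.6 CPM in SI_Con (−0.44 ± 0.10). Rnf2, the ubiquitin ligase of Polycomb repressive complex 1, was at 27.8 to 31 CPM in SI_WT and 34.8 to 39 CPM in SI_Con (−0.31 ± 0.08). The groups did not overlap for any of these 3 genes. Klf15, a transcription factor that glucocorticoids induce, was at 15.5 to 18.4 CPM in SI_WT and 19.1 to 29.3 CPM in SI_Con (−0.49 ± 0.13). Apba3, of a family of adaptors that bind the APP tail, was at 5.49 to 8.57 CPM in SI_WT and 11.5 to 12.7 CPM in SI_Con (−0.73 ± 0.20). Cd59a, which blocks the membrane attack complex of complement, was at 1.84 to 3.96 CPM in SI_WT and 5.66 to 10.1 CPM in SI_Con (−1.26 ± 0.33). These 3 also had separate groups, as did Flt4, the receptor of the lymphatic growth factor VEGF-C (−0.60 ± 0.16), and Ifitm2, an antiviral membrane protein. Ifitm2 was at 5.97 to 7.35 CPM in SI_WT, against 20.6 CPM in SI_Con 3 and 8.82 to 9.72 CPM in the other SI_Con libraries (−0.87 ± 0.23), and its difference was −0.48 without SI_Con 3. Ighd, the constant region of immunoglobulin D, was the exception. It was at 8.96 CPM in SI_Con 3 and 14.1 CPM in SI_Con 4, and at most 0.55 CPM in SI_WT and in the other 2 SI_Con libraries.

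On the higher side, the other 9 genes named by smallest p had an edgeR adjusted p of 1. Prdm8, a neuronal transcriptional repressor, was at 26.1, 29, 24.7 and 25.6 CPM in SI_WT, against 16.4, 13.5, 11.2 and 16.2 CPM in SI_Con (0.88 ± 0.26). Rasgrp3, an exchange factor that activates Ras, was at 19.7 to 24.9 CPM in SI_WT and 12 to 18.4 CPM in SI_Con (0.45 ± 0.13). Letmd1, a mitochondrial membrane protein, was at 26.3 to 32.2 CPM in SI_WT and 20.3 to 24.6 CPM in SI_Con (0.43 ± 0.11). For these 3 every SI_WT library was above every SI_Con library, and so it was for the zinc finger genes Zfp961 (1.90 ± 0.51) and Zfp429 (0.76 ± 0.22), the centriole gene Rttn (0.60 ± 0.17) and Lrmp, a membrane protein first known from lymphoid cells (1.20 ± 0.37). Trim34a, a tripartite motif gene, overlapped through SI_WT 1 (1.42 ± 0.38). Ide, the insulin-degrading enzyme that also degrades amyloid beta, was at 57.3, 125, 117 and 70.6 CPM in SI_WT, against 59.7, 51.8, 42.8 and 56.6 CPM in SI_Con (0.81 ± 0.24). SI_WT 2 and 3 stood apart from the rest of the 8 and SI_WT 1 lay inside the SI_Con range. GH mice averaged 123 ± 2.53 CPM in GH_WT and 87.5 ± 25.2 CPM in GH_Con (SD, n = 4 each).

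**Figure D2:**
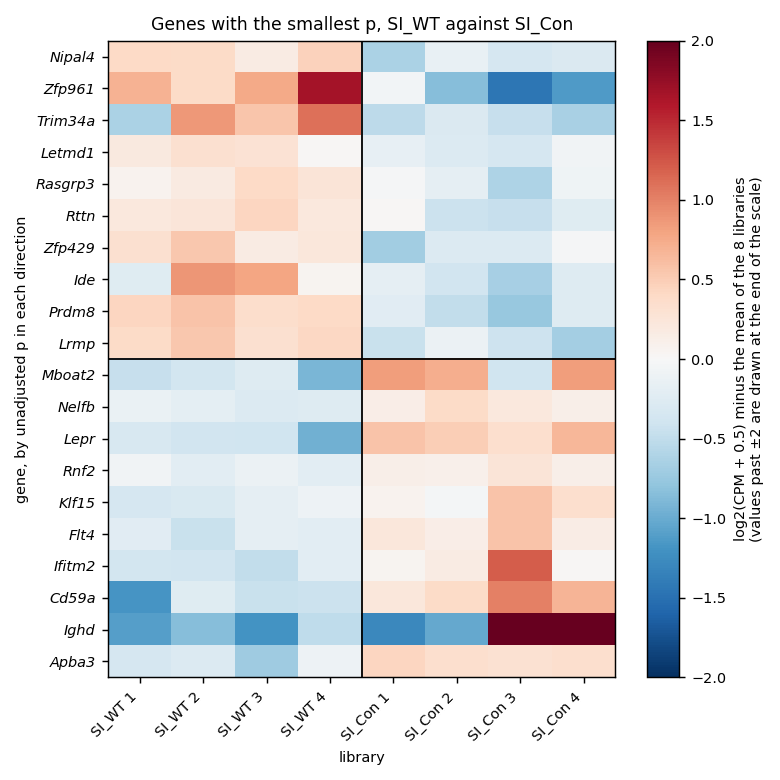
Level of the 20 genes with the smallest p, 10 higher and 10 lower in SI_WT, as log2(CPM + 0.5) minus the mean of the 8 libraries (values past 2 at the end of the colour scale), in columns for SI_WT 1 to 4 (left) and SI_Con 1 to 4 (right). Mboat2 in SI_Con 3 has the colour of the SI_WT libraries, and Ighd is high in SI_Con 3 and 4 only.

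Microglial genes were higher on average in SI_WT. In bulk tissue, more microglia and more RNA of these genes per cell cannot be told apart. Of 25 genes of microglia around plaques, 19 had a positive log2 difference, with a median of 0.39, beside 48.9% positive and a median of −0.0043 over all genes tested. At an unadjusted p under 0.05, 5 of them were higher (all genes, 1.4%) and 0 were lower, and none passed the adjustment. Cst7, which encodes a cysteine protease inhibitor of plaque microglia, was at 5.95, 6.44, 1.30 and 9.29 CPM in SI_WT, against 0.345, 2.40, 0.448 and 0.0862 CPM in SI_Con (2.79 ± 1.14; edgeR, adjusted p = 1). Itgax, the integrin CD11c, was at 1.16, 2.23, 0.536 and 2.58 CPM in SI_WT and at 0.172, 0.475, 0.0527 and 0.23 CPM in SI_Con (2.78 ± 1.23; adjusted p = 1). Itgax separated the groups, while Cst7 overlapped because SI_WT 3 lay below SI_Con 2. Trem2, the receptor that drives this state, was at 14.3, 16.5, 8.73 and 37.7 CPM in SI_WT and at 7.30, 13.1, 6.27 and 5.69 CPM in SI_Con (1.25 ± 0.45). Clec7a, a receptor for beta-glucans, was at 4.32, 5.07, 0.587 and 6.08 CPM in SI_WT and at 0.46, 2.40, 0.132 and 0.287 CPM in SI_Con (2.28 ± 1.07). In all 4 of these genes SI_WT 4 was the highest and SI_WT 3 the lowest of its group, and SI_Con 2 was the highest of SI_Con. The difference of Trem2 was 0.70 without SI_WT 4, and that of Cst7 4.27 without SI_Con 2. Without SI_WT 4 the list had 17 of 25 positive, a median of 0.21, and 0 genes higher and 1 lower at an unadjusted p under 0.05. The count of 5 became 1 without SI_Con 1 or SI_Con 4, 2 without SI_Con 3 or SI_WT 2, and 9 without SI_Con 2 or SI_WT 3. It was 9 by DESeq2 and with sex as a covariate, 2 by limma-voom, and 1 without SI_WT 4, SI_Con 2 and SI_Con 3 together.

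The 14 homeostatic microglial genes were all positive, with a median of 0.34, of which 1 was higher at an unadjusted p under 0.05 (all genes, 1.4%). That gene was Selplg, a selectin ligand, at 28.7, 34.1, 21 and 33.4 CPM in SI_WT and at 22.5, 18.7, 17.9 and 12.4 CPM in SI_Con (0.71 ± 0.27; edgeR, adjusted p = 1). P2ry12, the purine receptor by which resting microglia sense injury, was at 25.3, 30.5, 21.3 and 34.9 CPM in SI_WT and at 31.9, 31.3, 10.9 and 20.2 CPM in SI_Con (0.25 ± 0.29). Its groups overlapped, with SI_Con 3 the lowest of the 8, and the difference was 0.01 without that library. Without SI_Con 3 the list had 12 of 14 positive and a median of 0.20, and without SI_WT 4 a median of 0.17. Without SI_WT 4, SI_Con 2 and SI_Con 3 together, 11 of 14 were positive and the median was 0.14. The count of 1 became 6 without SI_Con 2, 4 without SI_WT 3 and 2 without SI_WT 2. Across the 17 complement genes 9 were positive (median 0.15, and 0.35 without SI_Con 3), with C1qa, a chain of the initiating C1q, at 32.9 to 90 CPM in SI_WT and 29.6 to 49.4 CPM in SI_Con. At an unadjusted p under 0.05, 0 of the 17 were higher (all genes, 1.4%) and 1 was lower (all genes, 2.44%). That gene was Cd59a, the only one of them with separate groups. Class I antigen presentation contributed H2-K1, at 26.7, 29.2, 26.4 and 25.9 CPM in SI_WT and at 17.8, 23.2, 17.4 and 16.1 CPM in SI_Con (0.54 ± 0.19; edgeR, adjusted p = 1). Its groups did not overlap, and 10 of the 15 measured genes of antigen presentation were positive (median 0.18). Without SI_WT 4, 6 of the 15 were positive and the median was −0.20, and the medians without each of the other libraries ran from 0.09 to 0.29.

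Interferon-response genes were positive in 23 of 24 (48.9% of all genes), with a median of 0.46, and 2 were higher at an unadjusted p under 0.05 (all genes, 1.4%). The list holds Ifitm3 but not Ifitm2, which was lower in SI_WT with separate groups, as given above (−0.87 ± 0.23). Interferon-response genes are switched on when factors activated by interferon receptors bind an interferon-stimulated response element in their promoters. Oas1a, which makes the second messenger that activates RNase L, was at 1.54, 1.90, 0.638 and 3.44 CPM in SI_WT and at 0.718, 1.69, 0.343 and 0.115 CPM in SI_Con (1.38 ± 0.54; edgeR, adjusted p = 1). Trim30a was at 3.52, 5.04, 2.14 and 6.28 CPM in SI_WT and at 3.10, 2.96, 2.40 and 1.90 CPM in SI_Con (0.71 ± 0.33). Ifit3, which binds viral RNA with its partner Ifit1, was at 7.03, 17, 11 and 26.3 CPM in SI_WT and at 12.6, 11.3, 5.27 and 8.39 CPM in SI_Con (0.71 ± 0.36). SI_WT 4 was the highest of the 8 for each of these 3 genes. Without it, 13 of 24 genes were positive and the median was 0.13, with 0 at an unadjusted p under 0.05. That count was also 0 without SI_Con 3 or SI_Con 4. It was 4 without SI_Con 2 or SI_WT 3, 1 without SI_WT 2, and 6 with sex as a covariate. The median was 0.29 without SI_Con 3 and 0.74 without SI_Con 2. Without SI_WT 4, SI_Con 2 and SI_Con 3 together, 18 of 24 were positive and the median was 0.23. Without SI_WT 4 the difference of Oas1a was 0.91 and that of Trim30a 0.46, and without SI_Con 2 that of Oas1a was 2.25.

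The promoters of these 3 genes are shown because all hold the element searched for, GAAA and GAAACT with 2 free bases between them, on either strand. It was found in 89 of 32851 promoters (0.271%) of the RefSeq table for GRCm38.p6, each 250 bases before to 50 bases after the annotated start, and in 6 of the 18 interferon-response genes that matched a promoter (Bst2, Ifit1, Ifit3, Ifitm3, Oas1a and Trim30a). A match describes the letters and is not a test of binding. The sequences are given 5′ to 3′ on the strand of the gene with the match in capitals, for Oas1a at chr5:120907476-120907775 (minus strand), Trim30a at chr7:104465144-104465443 (minus strand) and Ifit3 at chr19:34583279-34583578 (plus strand). A match on the opposite strand reads as AGTTTC and TTTC with 2 free bases between them.
Oas1a: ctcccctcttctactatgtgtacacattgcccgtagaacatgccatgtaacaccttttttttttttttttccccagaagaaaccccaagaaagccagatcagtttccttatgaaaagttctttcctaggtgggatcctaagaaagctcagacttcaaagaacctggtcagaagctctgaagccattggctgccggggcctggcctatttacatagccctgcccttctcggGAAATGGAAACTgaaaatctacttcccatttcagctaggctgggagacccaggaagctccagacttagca
Trim30a: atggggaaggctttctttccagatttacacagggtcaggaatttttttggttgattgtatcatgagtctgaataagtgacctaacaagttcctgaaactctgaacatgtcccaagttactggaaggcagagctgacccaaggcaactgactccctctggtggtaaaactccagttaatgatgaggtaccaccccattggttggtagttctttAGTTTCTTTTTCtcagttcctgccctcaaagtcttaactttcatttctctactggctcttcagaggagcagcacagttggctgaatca
Ifit3: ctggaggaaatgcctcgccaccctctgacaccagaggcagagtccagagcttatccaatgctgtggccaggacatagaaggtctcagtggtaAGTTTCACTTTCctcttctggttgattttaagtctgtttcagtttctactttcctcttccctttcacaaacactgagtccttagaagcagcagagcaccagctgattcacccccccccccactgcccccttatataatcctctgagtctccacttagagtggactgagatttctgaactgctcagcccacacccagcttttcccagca

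Astrocyte genes were mixed in direction. Of 18 reactive astrocyte genes 8 were positive (median −0.05), with 1 higher (all genes, 1.4%) and 4 lower (all genes, 2.44%) at an unadjusted p under 0.05, and of 15 other astrocyte genes 8 were positive (median 0.02). The reactive list had 5 of 18 positive and a median of −0.37 without SI_WT 4, and a median of 0.06 without SI_WT 3. Its 4 lower genes became 1 without SI_WT 1 (with 2 higher), 2 without SI_WT 4, SI_Con 3 or SI_Con 4, 1 with the replicate number as a block, and 0 by limma-voom or without SI_WT 4, SI_Con 2 and SI_Con 3 together. The other list had 5 of 15 positive and a median of −0.05 without SI_WT 2. Gfap, the intermediate filament of reactive astrocytes, was at 167, 273, 96.3 and 385 CPM in SI_WT, against 99.9, 163, 132 and 78.3 CPM in SI_Con (0.96 ± 0.45; edgeR, adjusted p = 1; 0.59 without SI_WT 4). SI_WT 1, 2 and 4 exceeded every SI_Con library and SI_WT 3 did not, the same order as for Trem2 in SI_WT. Lcn2, a secreted iron-binding protein of inflammation, was at 17.6 CPM in SI_Con 3 and at most 0.517 CPM in the other 7. Cd109, a co-receptor of TGF-beta signalling, was at 0.116 to 0.281 CPM in SI_WT and 0.287 to 1.38 CPM in SI_Con (−1.75 ± 0.68).

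**Figure D3:**
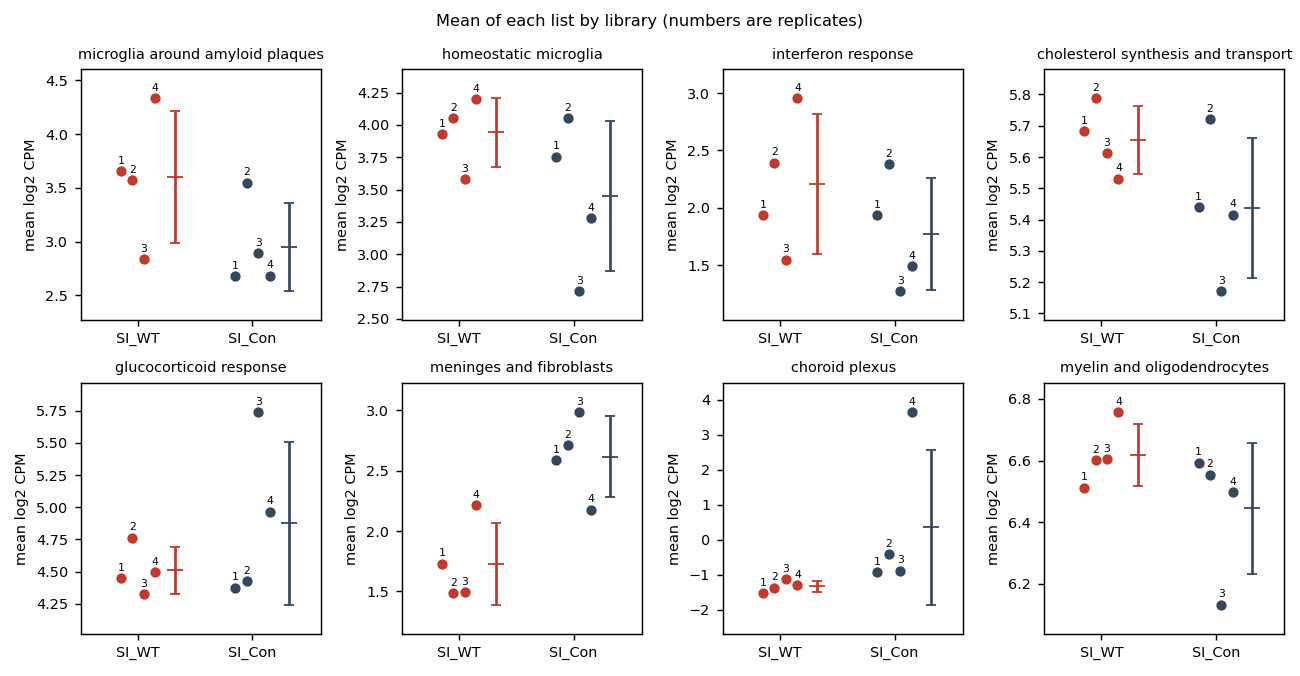
Mean log2 CPM of the measured genes of selected lists (vertical axes, 1 panel per list) in SI_WT (left) and SI_Con (right), 1 point per library with its number. The choroid plexus list stands at 3.64 in SI_Con 4 against −0.42 or lower in the other 7 libraries, and the glucocorticoid list at 5.74 in SI_Con 3.

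Genes of cholesterol synthesis and transport were positive in 20 of 25, with a median of 0.28, and 5 were higher (all genes, 1.4%) and 0 lower (all genes, 2.44%) at an unadjusted p under 0.05. Brain cells make their own cholesterol, most of it for myelin and synaptic membrane, through enzymes that the factor SREBP2 induces together. Hmgcs1, an early enzyme of the pathway, was at 311, 360, 295 and 291 CPM in SI_WT, against 254, 300, 158 and 205 CPM in SI_Con (0.46 ± 0.19; edgeR, adjusted p = 1). Sqle, which makes the first oxygenated sterol precursor, was at 70.1, 82.4, 62.2 and 64.9 CPM in SI_WT and at 54, 71.3, 35 and 45.7 CPM in SI_Con (0.44 ± 0.20). SI_WT 2 was the highest and SI_Con 3 the lowest of the 8 for both genes, and SI_Con 2 lay inside the SI_WT range. Idi1, Fdps and Sc5d, further enzymes of the pathway, differed by 0.62 ± 0.29, 0.41 ± 0.19 and 0.23 ± 0.11, and each overlapped between the groups. Without SI_Con 3 the list had 18 of 25 positive with a median of 0.24 and 0 genes at an unadjusted p under 0.05. The count was also 0 without SI_WT 2, 2 without SI_Con 4 or SI_WT 1, 8 without SI_WT 4 and 13 without SI_Con 2. It was 13 as well without SI_EE 1, a library in neither group that is part of the fit. Without SI_WT 4, SI_Con 2 and SI_Con 3 together, 20 of 25 were positive, the median was 0.37 and 10 were higher at that threshold.

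Myelin and oligodendrocyte genes were positive in 19 of 23 with a smaller median of 0.16, and 3 had separate groups with SI_WT higher (all genes, 0.796%). Plekhh1 was at 44.7, 53.7, 54.9 and 44.9 CPM in SI_WT, against 43.2, 38, 28.1 and 43.9 CPM in SI_Con (0.37 ± 0.15; edgeR, adjusted p = 1). Trf, the iron carrier transferrin that oligodendrocytes make, was at 249, 283, 325 and 349 CPM in SI_WT and at 254, 267, 190 and 237 CPM in SI_Con (0.35 ± 0.15). Mbp, a main protein of compact myelin, was at 490, 532, 515 and 814 CPM in SI_WT and at 547, 582, 564 and 488 CPM in SI_Con (0.11 ± 0.16). Apart from SI_WT 4 its groups overlapped fully. Without SI_WT 4, SI_Con 2 and SI_Con 3 together the list was positive in 13 of 23, with a median of 0.02, and without SI_Con 3 alone in 17 of 23, with a median of 0.10. Among 15 genes of oligodendrocyte precursors 10 were positive (median 0.07), and Cacng4, an auxiliary subunit of AMPA receptors, was at 33.7 to 45.4 CPM in SI_WT and 29 to 32.9 CPM in SI_Con (0.35 ± 0.16).

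Glucocorticoid-responsive genes were lower on average in SI_WT. Corticosterone enters cells and activates the glucocorticoid receptor, which binds response elements of genes such as Fkbp5, Sgk1 and Tsc22d3. Of 22 genes 18 were negative (51% of all genes), with a median of −0.35, and 9 were lower at an unadjusted p under 0.05 (all genes, 2.44%). Sgk1, a kinase induced by corticosteroids, was at 106, 78.3, 71.4 and 95.5 CPM in SI_WT, against 102, 73.2, 226 and 191 CPM in SI_Con (−0.75 ± 0.27; edgeR, adjusted p = 1). Fkbp5, a co-chaperone that restrains the receptor, was at 35.7, 38.7, 32 and 25.5 CPM in SI_WT and at 31.4, 27.9, 112 and 57.6 CPM in SI_Con (−0.80 ± 0.37). Sult1a1, a sulfotransferase, was at 5, 7.79, 4.77 and 8.39 CPM in SI_WT and at 6.41, 7.24, 41.9 and 12.7 CPM in SI_Con (−1.40 ± 0.50). For all 3 genes SI_Con 1 and 2 lay within the SI_WT range, and SI_Con 3 and 4, the 2 SI_Con libraries with Y-linked reads, lay above it. Without SI_Con 3 the differences of Sgk1 and Sult1a1 were −0.48 and −0.44, and the list had 14 of 22 negative, a median of −0.13 and 0 genes at an unadjusted p under 0.05. Leaving out SI_Con 4 or any 1 SI_WT library gave 3 to 5 such genes, the replicate block 3 and limma-voom 2. The count was 11 without SI_Con 1 or SI_Con 2, and 9 by DESeq2. With sex as a covariate 18 were negative, with a median of −0.33 and 4 lower at that threshold.

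Other genes were also high in SI_Con 3. Plin4, a lipid droplet coat protein, was at 75.7 CPM there, against 3.09 to 13.7 CPM in SI_WT and 4.54 to 18.7 CPM in the other SI_Con libraries. Slc2a1, which carries glucose across the blood-brain barrier, was at 93.9, 92, 79.4 and 102 CPM in SI_WT and at 106, 103, 195 and 144 CPM in SI_Con (−0.57 ± 0.16; edgeR, adjusted p = 1). Mfsd2a, which carries lysolipids across the blood-brain barrier, was at 17.1, 20.8, 14 and 16.5 CPM in SI_WT and at 18, 15.7, 36.2 and 25.7 CPM in SI_Con (−0.48 ± 0.22). Both followed the order seen for Sgk1, with SI_Con 3 highest and SI_Con 4 next, and without SI_Con 3 they differed by −0.36 and −0.21. The 18 endothelial genes as a list were near even, with 7 positive and a median of −0.05. The receptor gene Nr3c1 itself was at 109 to 184 CPM in SI_WT and 85.1 to 188 CPM in SI_Con (0.19 ± 0.21).

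The Sgk1 promoter is shown because its annotated window holds the palindromic element GNACA and TGTNC with 3 free bases between them, a pattern of glucocorticoid receptor sites, searched on both strands. The pattern was found in 156 of the 32851 promoters (0.475%) and in 2 of the 19 listed genes that matched one, Mt1 and Sgk1. The window is chr10:21993640-21993939 on the plus strand (RefSeq, GRCm38.p6), given 5′ to 3′ with the match in capitals.
Sgk1: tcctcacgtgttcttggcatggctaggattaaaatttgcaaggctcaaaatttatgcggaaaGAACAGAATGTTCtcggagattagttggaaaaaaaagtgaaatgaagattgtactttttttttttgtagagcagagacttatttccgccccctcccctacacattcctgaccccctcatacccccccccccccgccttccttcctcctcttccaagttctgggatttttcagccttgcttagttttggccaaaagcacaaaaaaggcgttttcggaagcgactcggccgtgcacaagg

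Genes of the meninges and of the choroid plexus were lower on average in SI_WT. The meninges cover the cortex, and the choroid plexus lies in the ventricles and makes cerebrospinal fluid. All 16 meningeal and fibroblast genes were negative, with a median of −0.77. In 6 of them the groups did not overlap (1.31% of all genes), and 6 were lower at an unadjusted p under 0.05 (all genes, 2.44%). Slc13a4, a sulfate transporter of the leptomeninges, was at 1.26, 1.05, 2.09 and 3.04 CPM in SI_WT, against 5.35, 5.04, 3.98 and 6.52 CPM in SI_Con (−1.49 ± 0.45; edgeR, adjusted p = 1). Ogn, a small proteoglycan of connective tissue, was at 1.26, 1.24, 1.48 and 2.11 CPM in SI_WT and at 4.22, 4.86, 4.82 and 2.27 CPM in SI_Con (−1.41 ± 0.39). Dcn, the proteoglycan decorin, was at 1.62 to 3.34 CPM in SI_WT and 4.67 to 5.72 CPM in SI_Con (−0.88 ± 0.38). In each of these 3 genes all SI_Con libraries were above all SI_WT libraries. The list mean ran from 1.49 to 2.21 log2 CPM in SI_WT and from 2.18 to 2.98 log2 CPM in SI_Con, overlapping only between SI_WT 4 and SI_Con 4. Without SI_Con 3, 15 of 16 were negative with a median of −0.53 and 4 were lower at that threshold. The count was 2 without SI_WT 4, SI_Con 2 and SI_Con 3 together, with all 16 negative and a median of −0.59, and 10 with only the 8 libraries. Slc13a4 averaged 6.38 ± 4.01 CPM in GH_WT and 5.67 ± 3.13 CPM in GH_Con (SD, n = 4 each).

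The size of the choroid plexus difference and its count of low p-values rested mostly on 1 library. All 15 genes were negative, with a median of −3.50, and 12 were lower at an unadjusted p under 0.05 (all genes, 2.44%). Ttr, the thyroid hormone carrier transthyretin that the choroid plexus secretes, was at 1.08, 5.67, 1.68 and 10.2 CPM in SI_WT, against 19.3, 29.6, 12 and 1013 CPM in SI_Con (−5.86 ± 2.04; edgeR, adjusted p = 1). Kl, the ageing-related protein klotho, was at 0.5, 0.854, 0.97 and 0.955 CPM in SI_WT and at 0.92, 1.19, 2.24 and 32.7 CPM in SI_Con. Ttr separated the groups even so, whereas Kl overlapped. The list mean ran from −1.52 to −1.13 log2 CPM in SI_WT. It was −0.935, −0.424, −0.888 and 3.64 log2 CPM in SI_Con 1 to 4, so every SI_Con library lay above every SI_WT library. Without SI_Con 4 the list had 12 of 15 negative, a median of −0.81, and 0 genes at an unadjusted p under 0.05, and Ttr differed by −2.13. The count of 12 was 7 with the replicate block and 0 by limma-voom. With only the 8 libraries, 7 genes of the list passed the filter on low counts. All 7 were negative, with a median of −2.96, and 5 were lower at that threshold. The 13 mural cell genes were negative in 11 (median −0.15), none of them at an unadjusted p under 0.05.

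Markers of other brain regions varied between libraries. Striatal genes were positive in 15 of 17 (median 0.26, and 0.14 to 0.46 when 1 library was left out, lowest without SI_WT 1 and highest without SI_Con 4), and the dopamine receptor Drd1 was at 68.1, 32, 60.3 and 28.2 CPM in SI_WT and at 24, 28.5, 37.4 and 49.4 CPM in SI_Con (0.44 ± 0.58). All 11 genes of thalamus and habenula were negative (median −0.61), with Lhx9, a factor of thalamic and habenular neurons, at 0.051 to 0.11 CPM in SI_WT and up to 1.64 CPM in SI_Con 2. Without SI_Con 2 the median of that list was −0.20, and by DESeq2 or limma-voom 1 of the 11 was positive. In the fit of all 24 libraries no member of either list had an unadjusted p under 0.05. With only the 8 libraries, 2 of the 17 striatal genes were higher at that threshold. In that fit 1 of 9 measured genes of thalamus and habenula was lower, and the median of that list was −0.25. Of 13 cerebellar genes 7 were positive (median 0.11, and −0.14 without SI_WT 3), and SI_WT 3 had the highest list mean of SI_WT, at 3.42 log2 CPM. The part of such markers in the other results was not tested.

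**Figure D4:**
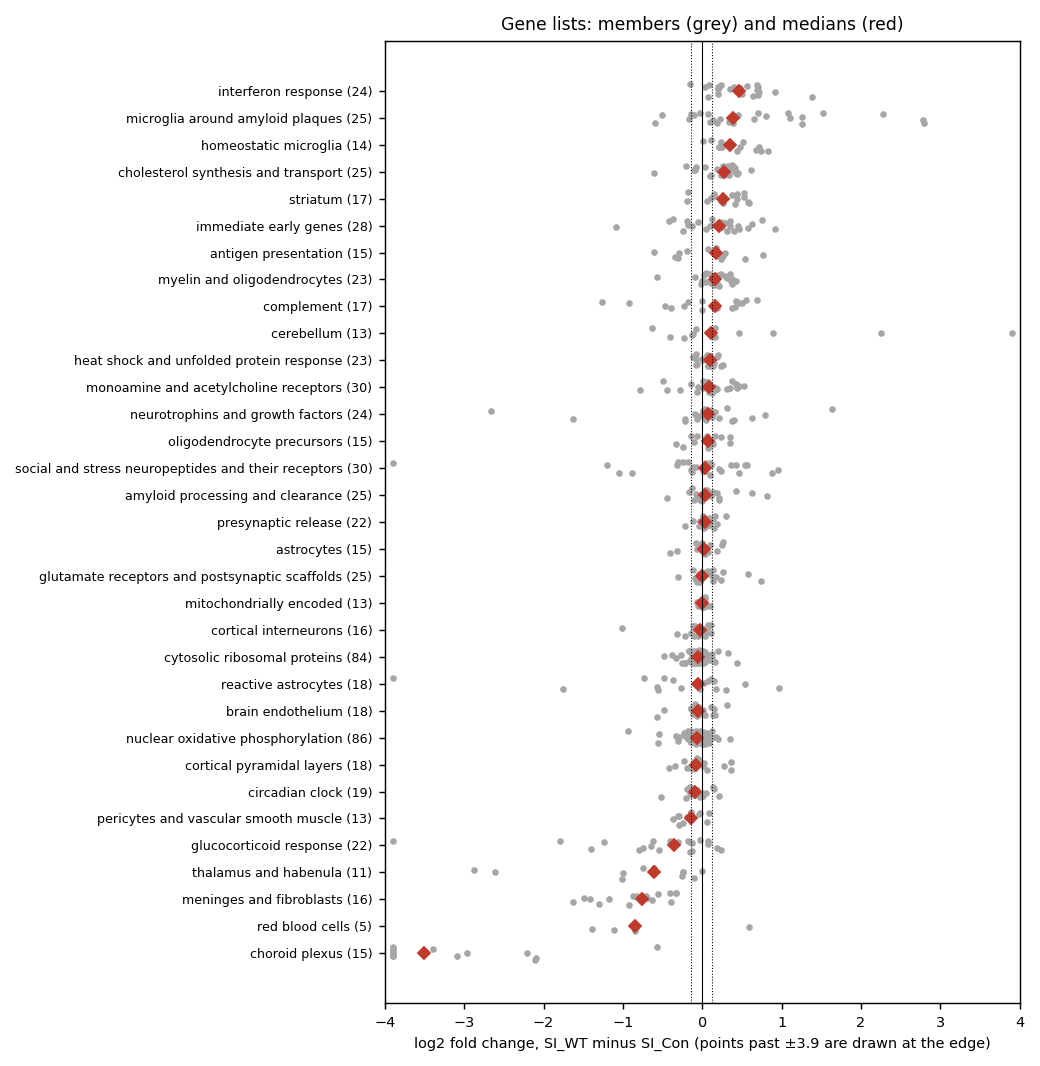
Log2 difference, SI_WT minus SI_Con (horizontal axis), of every measured gene (points) of the lists (rows), with the median of each list, the dotted lines marking the quartiles of all genes tested (−0.14 and 0.13), and points beyond the axis drawn at its edge. The choroid plexus, meninges and glucocorticoid lists lie to the left, and the microglial, interferon and cholesterol lists to the right.

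Activity-dependent genes were more often positive than negative in SI_WT. Of 28 immediate early genes 20 were positive (median 0.21), 2 were higher (all genes, 1.4%) and 1 lower (all genes, 2.44%) at an unadjusted p under 0.05. Klf10, a transcriptional repressor induced by TGF-beta and by activity, was at 35.5, 56.6, 45.5 and 37.9 CPM in SI_WT, against 23.3, 31, 17.4 and 32.9 CPM in SI_Con (0.75 ± 0.27; edgeR, adjusted p = 1), with separate groups. Egr2, a zinc finger factor, was at 7.81, 14.3, 7.25 and 6.37 CPM in SI_WT and at 3.13, 4.17, 4.03 and 7.59 CPM in SI_Con (0.91 ± 0.39). Fos was at 19.7, 41.6, 22.1 and 23.4 CPM in SI_WT and at 14.8, 18.4, 28.9 and 30.6 CPM in SI_Con (0.20 ± 0.32). SI_WT 2 was the highest of its group for all 3 genes, and for Fos the groups overlapped. Without SI_WT 2 the list had 18 of 28 positive, a median of 0.07, and 1 gene higher and 2 lower at that threshold. The median was 0.11 without SI_Con 2 and 0.35 without SI_Con 4, and without SI_WT 2 the differences of Egr2 and Fos were 0.60 and −0.09.

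Neurotrophic genes were positive in 17 of 24, with a median of 0.08. Bdnf, the main activity-regulated neurotrophin of cortex, was at 37, 42, 33.2 and 29.4 CPM in SI_WT, against 25.1, 24.4, 26.8 and 33.2 CPM in SI_Con (0.37 ± 0.19; edgeR, adjusted p = 1). SI_Con 4 lay inside the SI_WT range. Ntf3, neurotrophin 3, was at most 0.153 CPM in SI_WT and at 0.287 to 1.08 CPM in SI_Con (−2.67 ± 0.79), separate between the groups at a level close to the limit of detection. Ntrk2, the receptor of Bdnf, was at 400 to 874 CPM in SI_WT and 458 to 818 CPM in SI_Con (0.12 ± 0.24).

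Neuropeptides and receptors tied to social behaviour and stress were near even, with 18 of 30 positive and a median of 0.04. Oxtr, the oxytocin receptor, was at 5.13, 5.12, 3.34 and 4.20 CPM in SI_WT and at 4.31, 4.60, 4.11 and 4.63 CPM in SI_Con (0.01 ± 0.23). Tac2, the neurokinin B precursor that isolation is known to raise in mouse brain, was at 3.26, 4.41, 2.65 and 5.50 CPM in SI_WT and at 4.11, 5.81, 5.30 and 3.56 CPM in SI_Con (−0.25 ± 0.29; edgeR, adjusted p = 1). For both genes the groups overlapped. Crh, the stress-axis releasing hormone, was at 3.94 to 7.84 CPM in SI_WT and 4.43 to 6.98 CPM in SI_Con (0.04 ± 0.32). Hcrtr1, an orexin receptor, was at 1.98, 2.26, 2.14 and 2.72 CPM in SI_WT and at 0.92, 1.85, 1.63 and 1.87 CPM in SI_Con (0.53 ± 0.26), with separate groups. Gal, the peptide galanin, was read in SI_WT 4 only within SI_WT, at 0.0579 CPM, and at 0, 0.687, 0.158 and 0.172 CPM in SI_Con, so that most values lie at a few reads. Monoamine and acetylcholine receptor genes were positive in 23 of 30 (median 0.08). Among them Adra2a, the adrenergic receptor that tunes prefrontal working memory, was at 4.32, 8.92, 10.2 and 10.7 CPM in SI_WT and at 10.1, 15, 18.3 and 15.3 CPM in SI_Con (−0.79 ± 0.26; edgeR, adjusted p = 1), overlapping only through SI_Con 1.

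The lists of synaptic and neuronal identity genes lay close to 0. Glutamate receptors and postsynaptic scaffolds had 13 of 25 positive (median 0.0019), presynaptic release genes 18 of 22 (median 0.04), interneuron genes 7 of 16 (median −0.03) and pyramidal layer genes 6 of 18 (median −0.08). Without SI_Con 3 the presynaptic list had 9 of 22 positive (median −0.03) and the postsynaptic list 9 of 25 (median −0.03). Without SI_WT 4 they had 18 of 22 and 20 of 25 positive, and without SI_Con 1 20 of 22 and 21 of 25. Each of these medians was 0.12. In the fit of all 24 libraries no member of the 4 lists had an unadjusted p under 0.05. SI_WT 4 had the lowest list mean of postsynaptic genes among the 8, at 6.81 log2 CPM, against 7.57 to 7.65 log2 CPM in SI_WT 1 to 3. Amyloid processing and clearance genes had 14 of 25 positive (median 0.04), with Ide the only one at an unadjusted p under 0.05. Of heat shock and unfolded protein response genes, 17 of 23 were positive (median 0.10), and of clock genes 5 of 19 (median −0.10). Mitochondrially encoded genes had 6 of 13 positive (median −0.0007), 12 of 13 without SI_Con 3 (median 0.08) and 1 of 13 without SI_WT 4 (median −0.10). Ribosomal protein genes had 25 of 84 positive (median −0.05) and nuclear genes of oxidative phosphorylation 22 of 86 (median −0.06), with no member at an unadjusted p under 0.05. Both lists turned on single libraries. Without SI_WT 4 alone the ribosomal list had 3 of 84 positive, a median of −0.28 and 19 genes lower at that threshold, and the oxidative phosphorylation list 4 of 86, a median of −0.26 and 16 genes lower. In that fit 853 of all 20762 genes were lower at that threshold, and the median over all genes was −0.03. Without SI_Con 3 alone the medians were 0.08 and 0.05, and without SI_WT 4, SI_Con 2 and SI_Con 3 together 0.03 and 0.01. Of red blood cell genes 1 of 5 was positive (median −0.85).

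The difference of the WT arm in isolated mice was set against that in GH mice as an interaction. By edgeR, 0 of 20354 genes (0%) passed the adjusted threshold and 921 (4.52%) had an unadjusted p under 0.05, while DESeq2 and limma-voom called 0. Side by side, Sgk1 averaged 87.7 ± 15.7 CPM in SI_WT and 148 ± 72.2 CPM in SI_Con, and 158 ± 14.4 CPM in GH_WT and 90.6 ± 24.2 CPM in GH_Con (SD, n = 4 each; interaction −1.56 log2, edgeR adjusted p = 1). Gfap averaged 230 ± 126 CPM in SI_WT and 118 ± 37 CPM in SI_Con, and 192 ± 19.6 CPM in GH_WT and 292 ± 147 CPM in GH_Con (interaction 1.56 log2, edgeR adjusted p = 1). Cst7 averaged 5.75 ± 3.31 CPM in SI_WT and 0.821 ± 1.07 CPM in SI_Con, and 3.60 ± 1.70 CPM in GH_WT and 5.34 ± 5.86 CPM in GH_Con (interaction 3.36 log2, edgeR adjusted p = 1). For these 3 genes the differences ran in opposite directions in isolated and GH mice, and none of the interactions passed the threshold. Other named genes had higher means in the WT arm under both housings, among them Klf10, Egr2 and Ide. Klf10 averaged 45 ± 12.7 CPM in GH_WT and 30 ± 1.57 CPM in GH_Con (SD, n = 4 each). Egr2 averaged 11.8 ± 4.6 CPM in GH_WT and 4.06 ± 2.05 CPM in GH_Con.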

How the data were processed

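Per the labels' protocols, RNA of the medial prefrontal cortex was extracted with Trizol, cleaned and DNase-treated on columns, and made into Illumina libraries, all under 1 batch date. The authors deposited 1 table of read counts per gene, which are whole numbers with unequal library totals and so not normalised. The build is mm10, per the submitters' processing notes. Not given in the sources used here were the aligner, the counter, its annotation and its strand setting, so near-identical, overlapping or antisense genes are uncertain. Of 56750 entries 52007 had a symbol of their own. Positions are from GENCODE M21 (GRCm38) and promoters from RefSeq.

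The main test was edgeR's quasi-likelihood test (edgeR 4.0.16, R 4.3.3, TMM factors, group-wise filterByExpr, robust dispersions, group as the only term) in 1 fit of all 24 libraries, two-sided, with Benjamini-Hochberg adjustment over 20354 genes and a threshold of 0.05. Library totals for CPM were scaled by TMM, and 2 was the prior count on the log2 scale. SE is the log2 difference divided by the square root of F. DESeq2 1.42.0, limma-voom (limma 3.58.1) and other settings were alternatives, and the test was tried on simulated data.

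Members and gene lists (33, 31 of them by hand) were chosen with earlier results of these data known. Named genes were the 10 with the smallest p in each direction (mean CPM of at least 1, no Gm or Rik symbol), up to 2 members per list with an unadjusted p under 0.05, and a fixed set. Further list members given as examples were chosen after their values were seen. Promoters were not matched for 6 genes of the interferon list, among them Ifi27, Ifi27l2a, Usp18, Rtp4 and Mx1, nor for Zbtb16, Nr3c1 and Angptl4 of the glucocorticoid list. Some items that these rules name are not reported here.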

Additional observations from a re-analysis of the deposited data

Results flagged for a closer look

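In groups of 4 libraries, a library was set apart when its gap to the nearest of the others as a share of the group's range exceeded Dixon's 95% critical value. Of 182 groups examined (genes and list means, log2 CPM) 13 met this, and chance alone marks about 1 in 20. Values are log2 CPM with the nearest other library of the same group.

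In SI_WT 4, Mbp stood at 9.67 (nearest 9.06), the ribosomal protein list at 6.93 (nearest 6.23), the glutamate receptor and postsynaptic list at 6.81 (nearest 7.57), Lepr at −0.53 (nearest 0.30) and Gal at −3.17 (nearest −4.22). In SI_Con 3, Mboat2 stood at 4.54 (nearest 5.67), Ifitm2 at 4.37 (nearest 3.29) and Rnf2 at 5.29 (nearest 5.14). In SI_Con 4, the choroid plexus list stood at 3.64 (nearest −0.42) and the mural cell list at 3.08 (nearest 3.31). In SI_WT 3 the cerebellar list stood at 3.42 (nearest 2.30) and Rttn at 2.66 (nearest 2.45). In SI_WT 2 the immediate early list stood at 5.56 (nearest 5.12).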

How the results depend on the processing

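The count of genes past the adjusted threshold was 0 in the fit reported, 2 by DESeq2, 1 without SI_WT 4, SI_Con 2 and SI_Con 3 together, and 0 to 1 when 1 library was left out. At an unadjusted p under 0.05 the 781 genes became 1287 with no filter on low counts and 663 to 1271 when 1 library was left out, the highest without SI_WT 4, and 554 with only the 8 libraries. Without SI_EE 1, in neither group but part of the fit, there were 1011. That library had the cerebellar gene Gabra6 at 342 CPM. The interaction gave 0 in all 16 alternatives. The cause of these shifts was not tested. Same-numbered libraries did not deviate together (r −0.284 to 0.182, and 1 of 4 SI_WT libraries correlated best with its own number). With the replicate block 0 genes passed the adjusted threshold and 687 the unadjusted one.

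Sign changes were seen for genes near 0. When 1 library was left out, App ran from −0.1369 to 0.1159, Mbp from −0.0926 to 0.1856, Fos from −0.0888 to 0.3827 and Oxtr from −0.0664 to 0.1258. App was 0.0010 with no filter, and without the 3 libraries named above P2ry12 was −0.0240 and Mbp −0.0185. The choroid plexus median was −1.88 by limma-voom and −0.81 without SI_Con 4, the interneuron median −0.12 without SI_WT 4 and the endothelial median 0.04 without SI_Con 1. The other values of named genes (969 of 984) kept direction and side of the threshold, and 4, of Mboat2 and Nipal4, newly passed it. The other list medians (557 of 561) moved no more than the SD of the list mean within groups. That rule allows a change of sign, as for antigen presentation, from 0.18 to −0.20 without SI_WT 4. With 4 libraries a group, changes of 1 log2 unit or less may be missed, and larger ones where libraries of a group vary widely. Cst7 (2.79 ± 1.14) and Ttr (−5.86 ± 2.04) did not pass the threshold. The simulated counts held no shift shared by many genes of 1 library.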

Other observations

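Slc17a7, the vesicular glutamate transporter of cortical pyramidal neurons, took separate levels within each group. It was at 796, 1300, 798 and 1336 CPM in SI_WT and at 1310, 1396, 694 and 801 CPM in SI_Con, and across all 24 libraries no value lay between 822 and 1183 CPM. Mapt, which encodes tau, was at 545, 160, 513 and 420 CPM in SI_WT and at 180, 450, 426 and 168 CPM in SI_Con. Neither gene separated the WT arm from SI_Con. Fgf2, a growth factor, was at 5.75, 6.77, 0.153 and 4.57 CPM in SI_WT and at 5.03, 0.132, 0.237 and 0.201 CPM in SI_Con, again with libraries either high or near 0. These genes were singled out after their values were seen.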
